A study of Mus musculus with 18 samples.

Results

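The vacuolar proton pump (V-ATPase) is the enzyme that acidifies lysosomes and, in osteoclasts, the space between the cell and the bone it resorbs. It has a soluble V1 domain, which splits ATP, and a membrane V0 domain, through which protons pass. Several subunits come in alternative forms made by separate genes: the a subunit as a1, a2, a3 and a4, and the d subunit as d1 and d2, of which a3 (gene Tcirg1) and d2 (gene Atp6v0d2) are the forms known from osteoclasts. Loss of Tcirg1 blocks bone resorption and causes osteopetrosis, and Atp6v0d2 is also known for its part in the fusion of osteoclast precursors.

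The 10 genes described here were taken by symbol from the 34745 genes of the expression table: Tcirg1, Atp6v0a1 and Atp6v0a2 (a subunit), Atp6v0d1 and Atp6v0d2 (d subunit) and Atp6v0c (the proton-carrying ring) of V0, and Atp6v1a, Atp6v1b2, Atp6v1c1 and Atp6v1h of V1. The rule itself used symbols, not values. All 10 passed the filter on low counts, which left 14241 genes to test.

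RNA had been sequenced from mouse bone marrow-derived macrophages, cells grown from marrow with the growth factor M-CSF (50 ng/mL), either before RANKL (day 0) or after 1 or 3 days of RANKL (100 ng/mL), the cytokine that turns such cells into osteoclasts. The design text gives 3 days of M-CSF before RANKL, while the study's methods give a longer culture. The mice were 4 to 8 weeks old, on a C57BL/6 background, and were either Zmat1 knockout in every tissue or wild-type littermates. The 18 libraries formed 6 groups of 3, by genotype label (KO or WT) and day, and the labels do not say whether the 3 came from separate mice, so p-values measure only the spread between these libraries.

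Totals ran from 13789775 to 17559958 counts per library. Zmat1 was counted in every library, with 49 to 99 counts in the 9 labelled KO and 32 to 91 in the 9 labelled WT, so its counts did not separate the labels, and groups are called by label only. The titles of 5 libraries hold a double hyphen (WT day 0 library 1, KO day 0 library 2, KO day 1 libraries 1 and 2, and 1 of 2 WT day 1 libraries numbered 1), no day 3 title does, and the meaning of the style is not given. Markers of the macrophage (8 genes) were counted in every library, at summed levels of 28924 to 59505 CPM (counts scaled to a fixed library total) on days 0 and 1 and 6174 to 17117 CPM on day 3, and 7 of 8 were called lower from day 0 to day 3 in each label. Of all 14241 genes tested, 3773 (WT label) and 3173 (KO label) were called lower there. Markers of the osteoclast (8 genes) summed to 102 to 751 CPM on days 0 and 1, with Calcr at 0 in all those libraries, and to 7638 to 21818 CPM on day 3. Markers of stromal cells or osteoblasts (8 genes) summed to 67.4 to 7237 CPM on days 0 and 1, to 9762 to 12733 CPM in the libraries labelled WT on day 3 and to 16868 to 25667 CPM in those labelled KO on day 3. In bulk RNA, more cells of a type and more RNA per cell cannot be told apart.

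On GRCm38 the d subunit genes lie at chr8:105524465-105566047 (Atp6v0d1) and chr4:19876841-19922605 (Atp6v0d2), and Tcirg1 at chr19:3896050-3907133, as the expression table gives them, all on the minus strand.

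V-ATPase genes are known targets of TFEB and its relatives, which bind the letters TCACGTGA. RefSeq promoter windows (GRCm38.p6, 250 bases before to 50 after a gene start) were at hand for 5 of the 10 genes (Tcirg1, Atp6v0a1, Atp6v0d1, Atp6v0c and Atp6v1a). The 8 letters, which read the same on both strands, were in 320 of 32851 windows of all genes (0.974%) and in those of 2 of the 5 genes, Atp6v0d1 and Atp6v1a. The inner 6 letters, CACGTG, were in 7.15% of all windows and in the same 2. Bases 150 before to 10 after the start are shown for both because Atp6v1a rose from day 0 to day 3 in the WT label (it was not called in the KO label) while Atp6v0d1 was called in neither, with the 8 letters in capitals, from chr8:105566055-105566214 (Atp6v0d1) and chr16:44139250-44139409 (Atp6v1a), both on the minus strand.
Atp6v0d1: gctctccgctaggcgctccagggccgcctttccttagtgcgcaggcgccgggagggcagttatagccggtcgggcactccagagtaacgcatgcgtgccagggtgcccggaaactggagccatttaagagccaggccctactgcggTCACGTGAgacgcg
Atp6v1a: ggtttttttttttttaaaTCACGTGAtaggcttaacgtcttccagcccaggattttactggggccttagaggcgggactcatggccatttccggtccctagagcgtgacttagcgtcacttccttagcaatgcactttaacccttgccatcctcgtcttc
The match began 4 bases before the RefSeq start in Atp6v0d1 and 132 bases before it in Atp6v1a. In the expression table Atp6v1a reaches to base 44139705 of chr16, so the stretch shown for it lies inside the gene as given there. Among the other subunit genes, 14 of 15 had a window, of which Atp6v0e held the 8 letters and Atp6v0b held the inner 6 at 2 places.

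The first question was how the pump genes are expressed before RANKL. Levels between genes are compared in the deposited FPKM (reads corrected for gene length and library total). The lengths behind it run from 2097 bases (Atp6v1c1) to 11611 bases (Atp6v1h), and the order of the genes depends on them. On day 0 Tcirg1 had the highest mean, 149.8 ± 17.6 FPKM in the libraries labelled WT and 149 ± 4.73 FPKM in those labelled KO (SD, n = 3 each), and its libraries did not overlap those of the next gene, Atp6v0c (107 ± 18.4 and 106 ± 12.3 FPKM). Atp6v0d1 (92.4 ± 16.5 and 87.7 ± 8.21 FPKM), Atp6v1b2, Atp6v1a and Atp6v1c1 followed in both labels, each overlapping its neighbour in the order. Atp6v0a1 (16.6 ± 1.89 and 16.7 ± 2.40 FPKM) stood below them and above Atp6v0a2 and Atp6v1h, whose means lay between 4.84 and 6.13 FPKM. Atp6v0d2, at 42.8 ± 52.8 and 64.4 ± 46.8 FPKM, overlapped its neighbours in both labels.

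On day 3 the order in FPKM was another. Atp6v0d2 had the highest mean in both labels (290.0 ± 54.7 FPKM, WT label, and 199 ± 59.7 FPKM, KO label), followed by Atp6v1b2 (246 ± 43.9 and 165 ± 44.7 FPKM), with overlapping libraries. In the libraries labelled WT, Atp6v1b2 stood clear of Atp6v1c1, Atp6v0c and Tcirg1, which overlapped one another, and Atp6v1a, Atp6v0d1 and Atp6v1h each stood clear of the gene above it. In those labelled KO, the genes from Atp6v0d2 down to Atp6v0d1 each overlapped the next. Tcirg1 had the fifth highest mean in both. The length behind FPKM was 7299 bases for Tcirg1 and 2741 for Atp6v0d2, against longest coding transcripts (GENCODE M21) of 3041 and 2539 bases. Without length correction, mean day 3 levels under the WT label were 1058 CPM (Tcirg1) and 676 CPM (Atp6v0d2). Under the KO label they were 818 and 477 CPM. Which of these genes stood higher on day 3 thus depends on the length used.

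**Figure D1:**
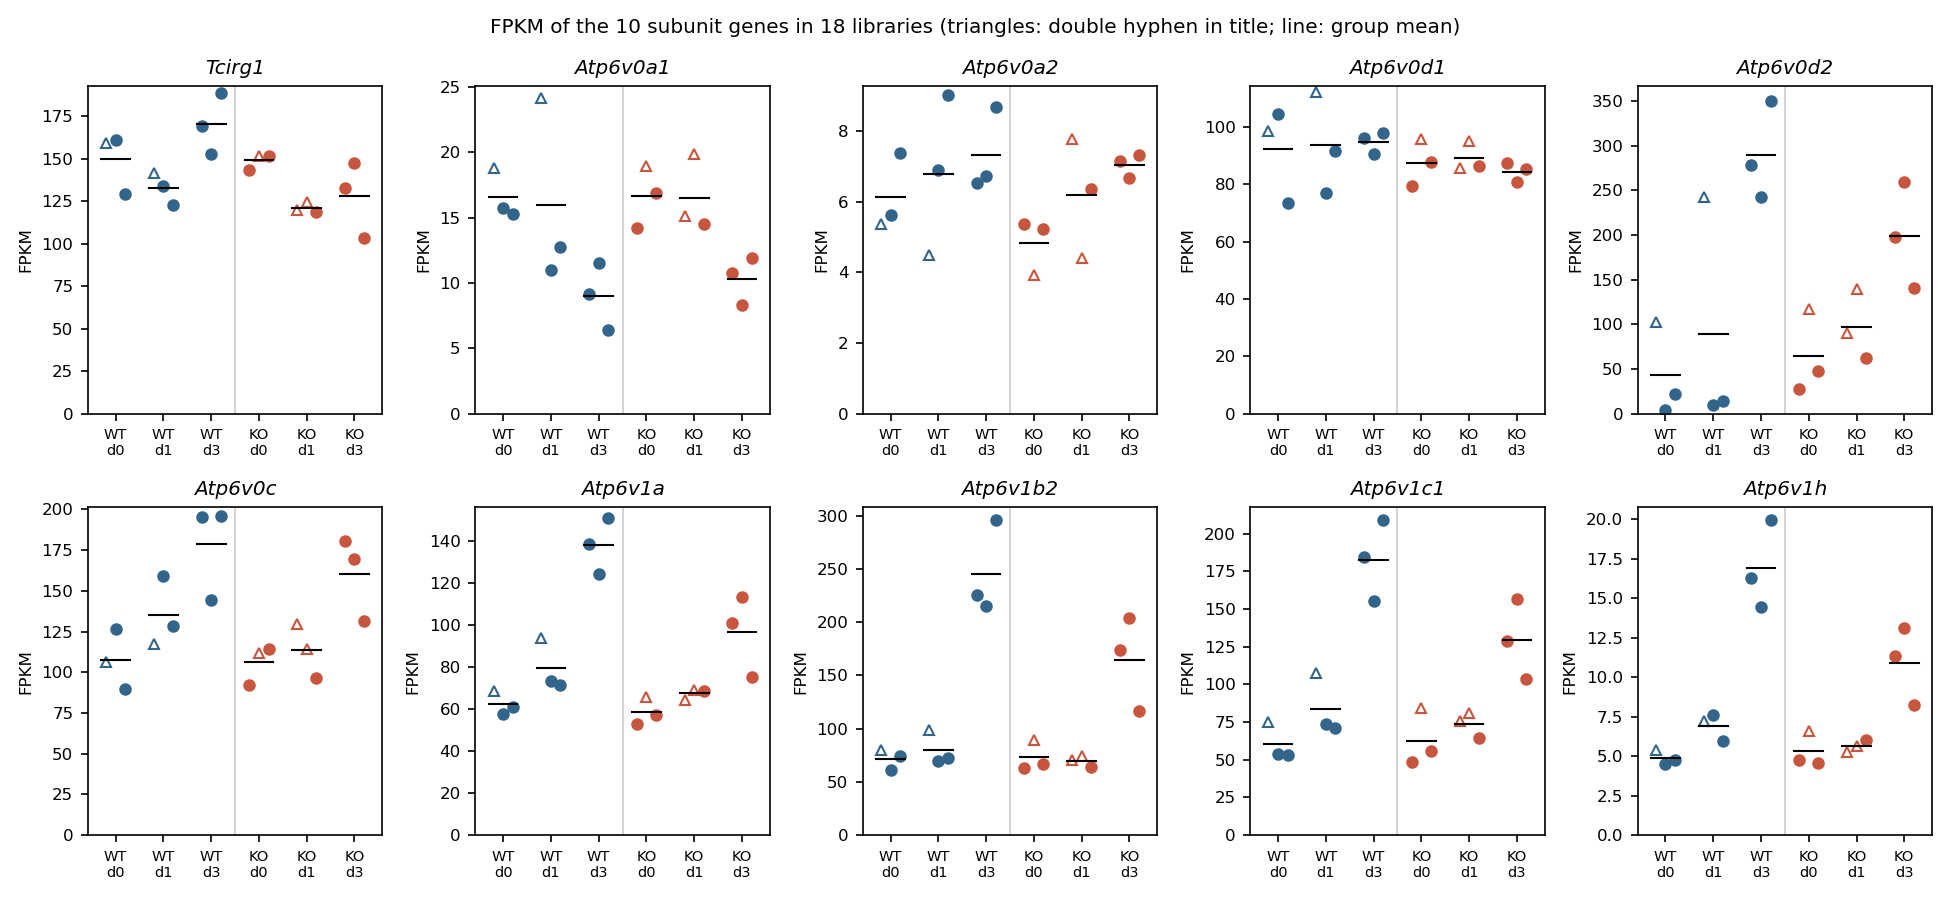
FPKM (y axis, from 0, a scale per gene) of each of the 10 genes in each of the 18 libraries, by label and day of RANKL (x axis); each point is a library, open triangles are titles with a double hyphen, and lines are group means (n = 3). The means of the 4 V1 genes (Atp6v1a to Atp6v1h) are highest on day 3 in both labels, that of Atp6v0a1 is lowest on day 3, and Atp6v0d2 on days 0 and 1 is highest in the double-hyphen libraries.

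The second question was which pump genes changed as osteoclasts formed. Between day 0 and day 3 in the libraries labelled WT, 4 members rose (Atp6v1a, Atp6v1b2, Atp6v1c1 and Atp6v1h, all of V1), 1 fell (Atp6v0a1) and 5 did not pass (edgeR quasi-likelihood test over all 18 libraries, Benjamini-Hochberg adjusted p under 0.05, here "called"). Of all genes tested, 50.2% were called in this comparison and 23.7% were called higher, so 5 of 10 is no more than the background share. In the libraries labelled KO, 2 rose (Atp6v1b2 and Atp6v1h), 2 fell (Tcirg1 and Atp6v0a1) and 6 did not pass, against 42.5% of all genes called and 20.2% called higher. The median log2 fold change of the 10 was 0.57 (WT label) and 0.35 (KO label), against -0.03 and -0.01 over all genes. The fold changes rest on TMM scaling (a factor per library that centres most genes). With total counts in its place the median of all genes moved to 0.33 and 0.29, and the calls became 5 rising and 1 falling (WT label) and 5 rising and 0 falling (KO label). The share of all genes called with total counts is not given here, so these counts are not set against a background. The WT count stayed at 5 or 6 with each library left out in turn. The KO count was 1 on leaving out library 3 of KO day 0 or library 2 of KO day 3, 2 without the first of KO day 3 and 3 without each of the others.

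Atp6v1b2 encodes the B subunit, which with subunit A forms the ATP-splitting head. It measured 79.7, 60.8 and 74.0 FPKM in the 3 libraries labelled WT on day 0 and 225, 215 and 296 FPKM on day 3. In those labelled KO it measured 63.3, 89.6 and 67.1 FPKM on day 0 and 174, 204 and 116 FPKM on day 3. Every day 3 library was above every day 0 library of its label, and the log2 fold changes were 1.41 (SE 0.267, adjusted p = 0.000706) and 0.85 (SE 0.264, adjusted p = 0.019). The KO call was lost on leaving out library 1 or 3 of KO day 0 (adjusted p = 0.0632 and 0.0586) or library 2 of KO day 3 (0.0833). Counts of Slc18a1, a gene on the opposite strand that overlaps Atp6v1b2, came to 1.29% of its counts.

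Atp6v1h encodes the H subunit, which couples V1 to V0. It measured 5.37, 4.52 and 4.74 FPKM on day 0 and 16.3, 14.5 and 19.98 FPKM on day 3 in the libraries labelled WT. The KO-labelled libraries gave 4.76, 6.58 and 4.56 FPKM and 11.4, 13.1 and 8.23 FPKM. The WT groups did not overlap, with a log2 fold change of 1.42 (SE 0.207, adjusted p = 0.000101), while KO day 3 library 3 fell just below KO day 0 library 2 in CPM, with a log2 fold change of 0.73 (SE 0.205, adjusted p = 0.0114). The KO call was lost without KO day 3 library 2 (adjusted p = 0.0577).

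Atp6v1a, the catalytic A subunit, measured 68.6, 57.5 and 60.7 FPKM on day 0 and 139, 124 and 151 FPKM on day 3 in the libraries labelled WT, without overlap, at a log2 fold change of 0.77 (SE 0.204, adjusted p = 0.00627). Under the KO label it measured 52.9, 65.8 and 57.3 FPKM and 101, 113 and 75.4 FPKM, apart in FPKM but overlapping in TMM-scaled CPM, with a log2 fold change of 0.41 (SE 0.203, adjusted p = 0.114). The KO value was called with total counts (0.72), with the title style as a covariate (0.57) and without the 5 double-hyphen libraries (0.63).

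Atp6v1c1, the C subunit that links the domains, measured 75.1, 53.5 and 52.9 FPKM on day 0 and 184, 155 and 209 FPKM on day 3 in the libraries labelled WT, without overlap, with a log2 fold change of 1.21 (SE 0.294, adjusted p = 0.00374). In those labelled KO it measured 48.7, 83.9 and 55.5 FPKM and 128, 156 and 103 FPKM, again overlapping in TMM-scaled CPM, with a log2 fold change of 0.73 (SE 0.292, adjusted p = 0.0574). That value passed in the fit with a replicate block within each label (0.76, adjusted p = 0.0243) and without KO day 0 library 2 (1.10, adjusted p = 0.0123).

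Of the a subunit genes, Atp6v0a1 fell in both labels. It measured 18.8, 15.7 and 15.3 FPKM on day 0 and 9.15, 11.6 and 6.40 FPKM on day 3 in the libraries labelled WT, and 14.2, 19.0 and 16.9 FPKM and 10.8, 8.30 and 11.9 FPKM in those labelled KO. No day 3 library reached a day 0 library of its label, and the log2 fold changes were -1.24 (SE 0.347, adjusted p = 0.00865) and -0.99 (SE 0.345, adjusted p = 0.0321). The KO call was lost with the replicate block within label (-0.96, adjusted p = 0.0524), with total counts (-0.69, adjusted p = 0.0523) and when library 2 or 3 of KO day 0, or 1 or 2 of KO day 3, was left out (adjusted p of 0.0643 to 0.117).

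Tcirg1, the a3 gene, measured 159, 161 and 129.5 FPKM on day 0 and 169.5, 153 and 189 FPKM on day 3 in the libraries labelled WT, which overlapped, at a log2 fold change of -0.19 (SE 0.173, adjusted p = 0.374). That sign turned with total counts (0.18, adjusted p = 0.293). Libraries labelled KO held 144, 152 and 152 FPKM and 133, 147 and 103 FPKM, a fall by TMM-scaled counts, with a log2 fold change of -0.52 (SE 0.174, adjusted p = 0.0262). That call was lost with total counts (-0.22, adjusted p = 0.225) and when library 2 or 3 of KO day 0, or 1 or 3 of KO day 3, was left out (adjusted p of 0.0597 to 0.103). Atp6v0a2, between 3.93 and 9.03 FPKM over all 18 libraries, had log2 fold changes of -0.11 (adjusted p = 0.677) and 0.26 (adjusted p = 0.316).

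Of the d subunit genes, Atp6v0d1, the form known from most tissues, measured 98.7, 105 and 73.7 FPKM on day 0 and 96.1, 90.7 and 97.9 FPKM on day 3 in the libraries labelled WT. Under the KO label the values were 79.3, 95.7 and 88.0 FPKM and 87.4, 80.8 and 85.3 FPKM. Its log2 fold changes were -0.33 (adjusted p = 0.181), which turned to 0.039 with total counts, and -0.35 (adjusted p = 0.175). Atp6v0c, the ring subunit, measured 106, 127 and 89.8 FPKM and 195, 145 and 196 FPKM (WT label) and 92.0, 112 and 114 FPKM and 181, 169.7 and 132 FPKM (KO label) on days 0 and 3. It had log2 fold changes of 0.36 (adjusted p = 0.132) and 0.30 (adjusted p = 0.233), and was called higher in both with total counts (0.73 and 0.60).

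Atp6v0d2 had the largest fold change of the 10 and the largest error. It measured 103, 3.90 and 21.6 FPKM in the libraries labelled WT on day 0, the first of which has the double hyphen, and 278, 242 and 349.6 FPKM on day 3. Under the KO label it measured 27.9, 117 and 48.1 FPKM on day 0, the second with the double hyphen, and 197, 259.5 and 140.2 FPKM on day 3. All day 3 libraries lay above all day 0 libraries in FPKM within each label, and in TMM-scaled CPM within the WT label, whereas KO day 3 library 3 (354 CPM) lay below KO day 0 library 2 (374 CPM). The log2 fold changes were 2.33 (SE 1.19, adjusted p = 0.115) and 1.28 (SE 1.15, adjusted p = 0.388), so neither was called. With the title style as a covariate they were 4.03 (adjusted p = 0.000728) and 2.40 (adjusted p = 0.0137), and without the 5 double-hyphen libraries they were 4.26 (adjusted p = 0.000884) and 2.20 (adjusted p = 0.0151). Leaving out WT day 0 library 1 alone gave 4.22 (adjusted p = 0.0255) in the WT label.

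**Figure D2:**
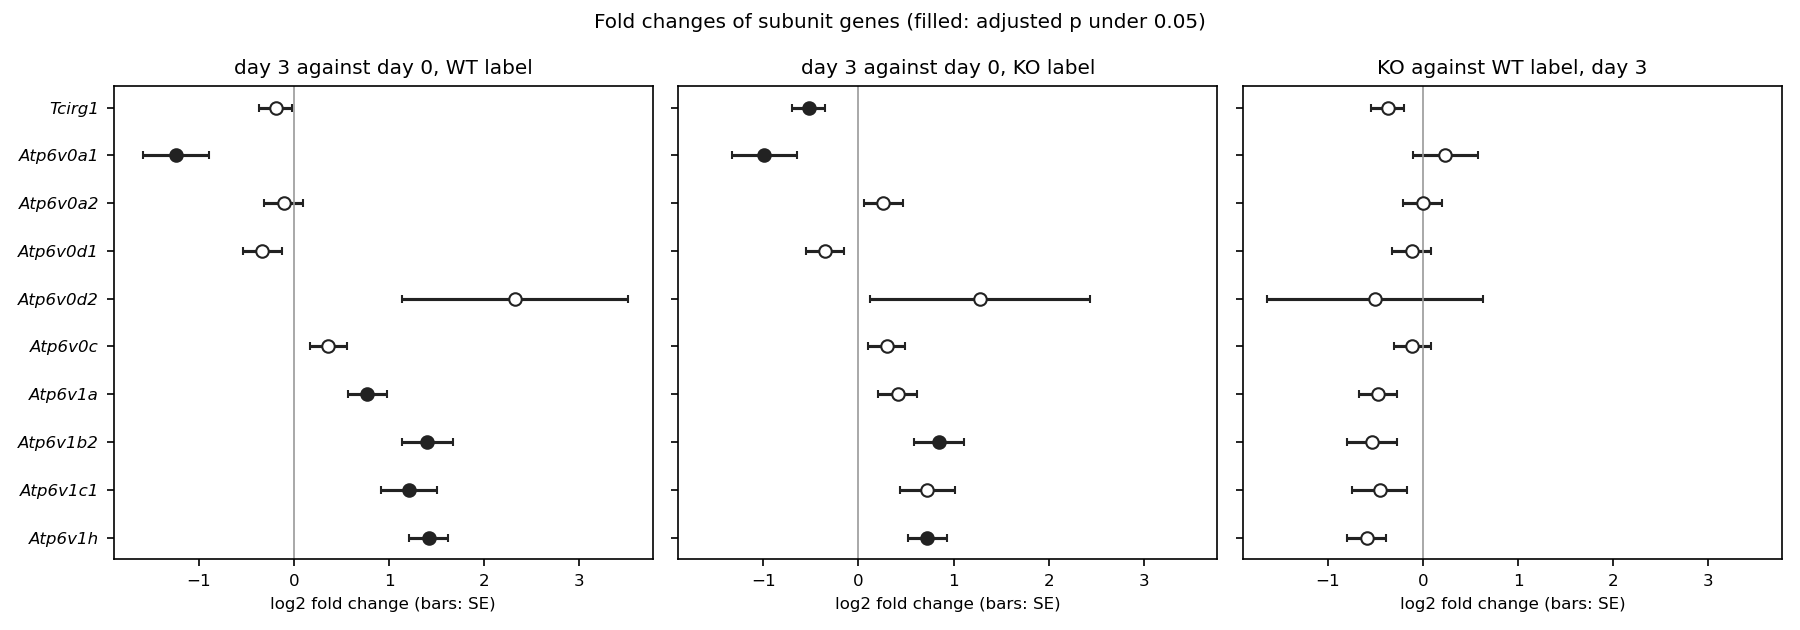
Log2 fold change with its SE (x axis, 1 scale for all panels, edgeR with TMM scaling) of each of the 10 genes (y axis) from day 0 to day 3 in the libraries labelled WT and KO (left and middle) and between the labels on day 3 (right, KO against WT). Filled points passed an adjusted p under 0.05: 5 genes, 4 genes and 0 genes; the bar of Atp6v0d2 is the widest in each panel.

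The first day of RANKL was asked about separately. None of the 10 was called on day 1 against day 0 in either label (0 with edgeR and 0 with the DESeq2 Wald test, at an unadjusted p under 0.05 1 of 10, Atp6v1h, in the WT label and 0 of 10 in the KO label), where 2.35% (WT label) and 0.0211% (KO label) of all genes were. Member log2 fold changes ran from -0.22 to 1.12 and from -0.31 to 0.56, the upper end of each being Atp6v0d2, which measured 243, 9.27 and 13.5 FPKM (WT label, the first with the double hyphen) and 89.8, 139 and 61.8 FPKM (KO label, the first and second with it) on day 1. Day 1 values of Atp6v1b2 were 98.7, 69.2 and 72.4 FPKM (WT label) and 70.8, 74.7 and 63.7 FPKM (KO label), all below every day 3 library of their label. Those of Atp6v1h were 7.20, 7.60 and 5.95 FPKM and 5.28, 5.66 and 6.03 FPKM, likewise below day 3. Those of Atp6v0a1 were 24.2, 11.01 and 12.7 FPKM, overlapping day 3, and 15.1, 19.9 and 14.5 FPKM, above day 3.

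From day 1 to day 3, Atp6v1b2 and Atp6v1h rose and Atp6v0a1 fell in both labels, 3 of 10 called against 32% of all genes (12.7% higher) in the WT label and 28% (12.5% higher) in the KO label. The log2 fold changes were 1.27 (adjusted p = 0.00298) and 0.94 (adjusted p = 0.0176) for Atp6v1b2, 0.96 (adjusted p = 0.00322) and 0.66 (adjusted p = 0.0272) for Atp6v1h, and -1.19 (adjusted p = 0.0178) and -0.97 (adjusted p = 0.0483) for Atp6v0a1. Atp6v0a1 was no longer called in the KO label with the replicate block (-0.94, adjusted p = 0.0731), in either label without the 5 double-hyphen libraries (-0.54 and -0.57), or in the WT label without WT day 3 library 3 (-0.98, adjusted p = 0.082). Leaving out only the double-hyphen WT day 1 library gave -0.57 (adjusted p = 0.157), and 5 members were called in the WT label, all higher. In the KO label, 1 member was called on leaving out any 1 of the KO day 1 libraries or the first of KO day 3, and 0 on leaving out the second of KO day 3.

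The balance of the isoforms within a library needs no scaling between libraries. Atp6v0d2 made up 51.1%, 3.59% and 22.7% of the summed FPKM of both d genes in the libraries labelled WT on day 0. The share was 68.4%, 10.7% and 12.8% on day 1, where the first is the double-hyphen library, and 74.3%, 72.7% and 78.1% on day 3. In those labelled KO it was 26.0%, 55.1% and 35.3% on day 0, 51.2%, 59.4% and 41.7% on day 1 and 69.3%, 76.3% and 62.2% on day 3. By FPKM Atp6v0d2 was thus the majority d gene in every day 3 library, and in the 5 double-hyphen libraries but none of the 7 single-hyphen ones of days 0 and 1.

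Averaged over the labels, the Atp6v0d2 share was 39.9 percentage points higher on day 3 than on day 0 and 31.5 points higher than on day 1 (exact 2-sided permutation of the days within labels, p = 0.005 each, the smallest that 400 orders allow, and adjusted p = 0.02 each over 8 share tests, n = 3 per group). Both were larger without the 5 double-hyphen libraries, at 50.2 and 45.4 points. The first had an exact p of 0.01, the smallest that the orders left allow (adjusted p = 0.08). The second rests on 1 library of KO day 1. Without any 1 of the WT day 3 libraries the differences were 39.1 to 40.4 points (day 0) and 30.7 to 32.0 points (day 1) and were not called (exact test, adjusted p of 0.08 to 0.1). Leaving out a library makes the groups unequal and leaves fewer orders, which alone can cost a call. Day 1 against day 0 differed by 8.40 points (exact p = 0.485, n = 3 per group), and by -1.03 points once the double-hyphen WT day 1 library was left out. Lengths of the longest coding transcript (1629 bases for Atp6v0d1 and 2539 for Atp6v0d2) in place of the length behind FPKM put the day 3 shares between 57.6% and 74.7%. With those lengths the highest WT day 0 share was 46.3%, so the double-hyphen library there no longer held a majority of Atp6v0d2, and the highest shares were 64.1% (WT day 1), 50.3% (KO day 0) and 54.7% (KO day 1). The double-hyphen KO day 1 library 1, with 4323 counts of Atp6v0d2 and 3201 of Atp6v0d1, lost its majority with those lengths too.

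Tcirg1 made up most of the a subunit in every library. Its share of the summed FPKM of Tcirg1, Atp6v0a1 and Atp6v0a2 was 86.8%, 88.3% and 85.1% on day 0, 83.2%, 88.2% and 84.9% on day 1 and 91.5%, 89.3% and 92.6% on day 3 in the libraries labelled WT. Under the KO label it was 88.0%, 86.9% and 87.3%, 83.9%, 83.6% and 85.1% and 88.1%, 90.8% and 84.3%. All WT day 3 shares lay above all WT day 0 and day 1 shares, while those of KO day 3 overlapped both earlier groups. Over both labels the share was 4.61 points higher on day 3 than on day 1 (exact permutation p = 0.01, adjusted p = 0.0267, n = 3 per group) and 2.38 points higher than on day 0 (exact p = 0.095, adjusted p = 0.152, n = 3 per group). The latter was 3.23 points without KO day 3 library 3 (adjusted p = 0.0133 by the exact test). On day 1 against day 0 the Tcirg1 share differed by -2.24 points (exact p = 0.04, adjusted p = 0.08, n = 3 per group), which was not called. The difference of day 3 against day 1 was 3.61 points without the 5 double-hyphen libraries, which leaves 1 library of KO day 1. It was no longer called without any 1 of the WT day 3 libraries, KO day 1 libraries 1 or 2 or the double-hyphen WT day 1 library (4.04 to 5.07 points, exact test, adjusted p of 0.0533 to 0.1). Leaving out a library makes the groups unequal and leaves fewer orders.

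Atp6v0a1 held 9.65% ± 0.885 of the a subunit on day 0 and 4.95% ± 1.81 on day 3 in the libraries labelled WT. In those labelled KO it held 9.75% ± 1.09 and 7.32% ± 2.31 (SD, n = 3 each). Atp6v0a2 lay between 2.25% and 6.25% in every library. Its mean share was 3.62% on day 0 and 3.91% on day 3 in the WT label. In the KO label it went from 2.85% (2.25% to 3.30%) to 4.94% (4.12% to 5.98%), without overlap. The mean Tcirg1 share in the KO label was 87.4% on day 0 and 87.7% on day 3. Atp6v0a4, the kidney form, had 35 counts over all 18 libraries together.

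**Figure D3:**
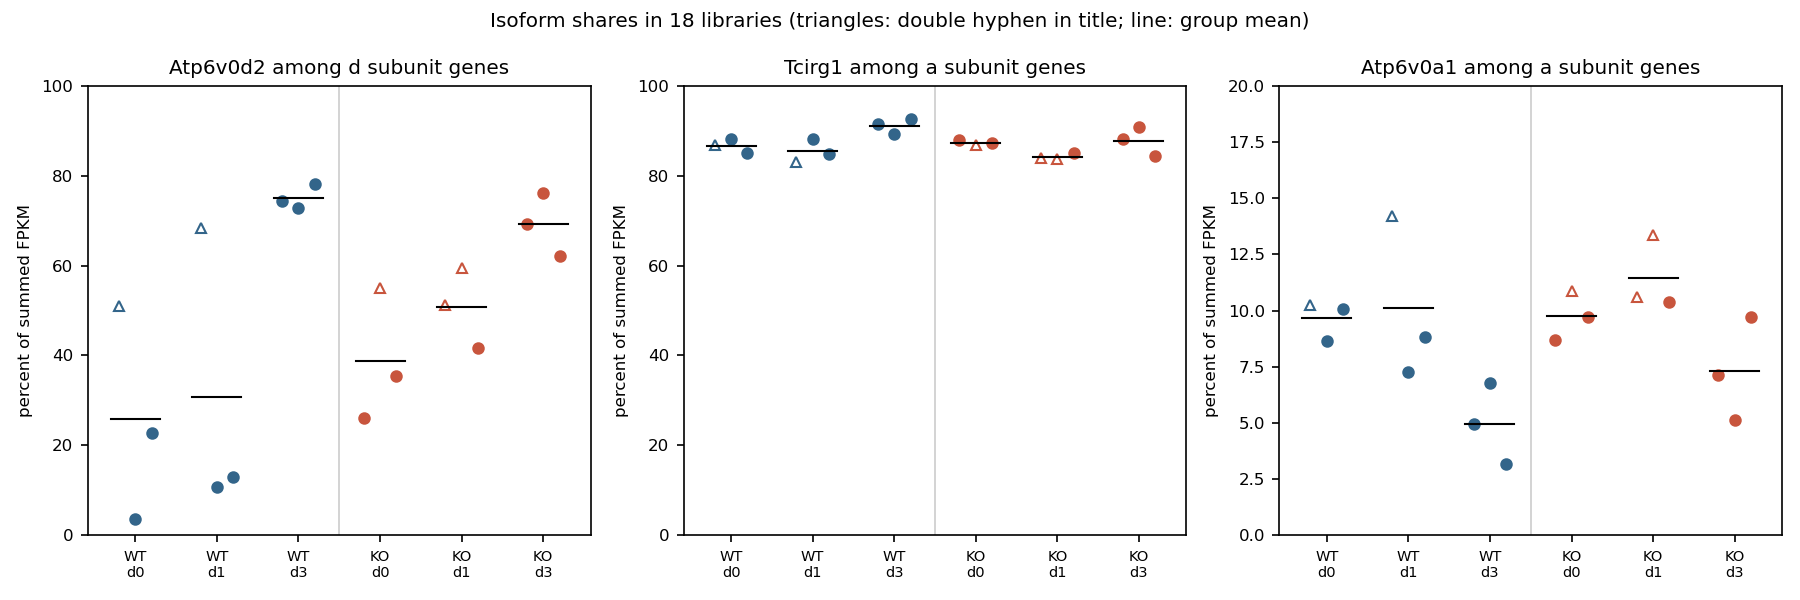
Share of the summed FPKM (y axis, percent) held by Atp6v0d2 among both d genes, by Tcirg1 among 3 a genes and by Atp6v0a1 among the same 3 (the last on a shorter axis) in each library, by label and day (x axis); triangles are double-hyphen titles and lines are group means (n = 3). Atp6v0d2 is above 62% in all 6 day 3 libraries, and Tcirg1 is above 83% in all 18.

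The third question was whether the labels differed. No member was called on day 0, day 1 or day 3 (0 of 10 on each day with edgeR and with the DESeq2 Wald test), where 0.119%, 0.112% and 0.14% of all genes were, and none had a called interaction of label and day (0% of all genes). At an unadjusted p under 0.05 the counts were 0, 0, 3 (Tcirg1, Atp6v1a and Atp6v1h) and 1 (Atp6v1h) of 10. On day 3, 9 of 10 members had lower fitted values in the libraries labelled KO (Atp6v0a2 by -0.0049 on the log2 scale, a sign that turned when the third WT or the first or second KO day 3 library was left out, while Atp6v0a1 was the one above 0), with a median log2 fold change of -0.41, against 0.02 over all genes. For 5 of 10 (Tcirg1, Atp6v0d1, Atp6v1a, Atp6v1b2 and Atp6v1h) each KO library lay below each WT library, which held for 13.3% of all genes tested. On days 0 and 1 the medians were -0.03 and -0.16.

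The largest of these differences was that of Atp6v1h, at -0.59 (SE 0.203, adjusted p = 0.336) with a 95% interval of -1.03 to -0.16 on the log2 scale. Atp6v1b2 followed at -0.54 (SE 0.263, adjusted p = 0.483), with an interval of -1.10 to 0.02, and Tcirg1 measured -0.37 (SE 0.173, adjusted p = 0.467), with an interval that ended just below 0. The interval of Atp6v0d2 was -2.93 to 1.92, which covers changes of either sign. KO day 3 library 3 was the lowest of the 6 day 3 libraries in FPKM for Tcirg1, Atp6v0d2, Atp6v0c, Atp6v1a, Atp6v1b2, Atp6v1c1 and Atp6v1h. The label difference ran from -0.73 to -0.45 for Atp6v1h and from -0.71 to -0.36 for Atp6v1b2 with each day 3 library left out in turn. Summed osteoclast markers on day 3 were 7638 to 16598 CPM under the KO label and 14749 to 21818 CPM under the WT label, which overlap, and 0 of 8 were called (0 at an unadjusted p under 0.05). Summed stromal markers did not overlap, as given above, and were higher under the KO label. That sum is mostly collagen: over all 18 libraries Col1a1, Col1a2 and Col3a1 had 1035997, 822631 and 213952 counts. Postn had 42603, Pdgfrb 30191, Lum 801, Dcn 671 and Bglap 4. Whether cells of either type have a part in the label difference was not tested.

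Label differences in the isoform shares did not pass either. Over the 3 days the Atp6v0d2 share was 9.10 points higher (exact permutation of the labels within days, 8000 orders, p = 0.2955, adjusted p = 0.338, n = 3 per group) and the Tcirg1 share 1.31 points lower (exact p = 0.205, adjusted p = 0.273, n = 3 per group) in the libraries labelled KO. On day 3 alone, the Atp6v0d2 share was 69.2% ± 7.04 under the KO label and 75.1% ± 2.76 under the WT label (SD, n = 3 each), a difference of -5.83 points (exact p = 0.3, where 20 orders cannot go below 0.1).

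The fourth comparison was between the title styles, chosen after the values were seen. With the style as a term beside the 6 groups, 8 of 10 members were called higher in the double-hyphen libraries and 0 lower, against 23.2% of all genes called and 9.94% called higher. Those not called were Atp6v0a2 at -0.18 (SE 0.152, adjusted p = 0.416) and Atp6v0c at 0.25 (SE 0.132, adjusted p = 0.187). Atp6v0d2 had the largest coefficient, 2.73 (SE 0.506, adjusted p = 0.00256), rank 52 of 14241 genes from the highest. Atp6v1c1 at 0.72 (SE 0.0991, adjusted p = 0.000435) and Atp6v0a1 at 0.70 (SE 0.180, adjusted p = 0.014) were next. In FPKM the double- and single-hyphen ranges did not overlap on days 0 and 1 (5 and 7 libraries) for Atp6v0d2 (89.8 to 243 against 3.90 to 61.8) and Atp6v1c1 (75.1 to 107 against 48.7 to 73.6), and overlapped for the other 8.

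Leaving out the double-hyphen WT day 1 library brought the count of members to 3, against 6 or 7 without any other 1 of the 5, and 8 with only the 12 libraries of days 0 and 1. Of the other subunit genes, 7 of 9 tested were called higher and 0 lower. Of the osteoclast markers 3 of 8 were called lower and 0 higher, and of the stromal markers 5 of 7 tested were called lower. Of all 14241 genes tested, 1416 were called higher and 1894 lower in this comparison. In CPM the summed osteoclast markers were 212 to 303 in the double-hyphen libraries of days 0 and 1 and 102 to 751 in the others, a range that holds the former, and the summed macrophage markers 46452 to 59505 and 28924 to 48741. Most of the macrophage sum was Lyz2 (37426 to 50203 and 19833 to 37061 CPM). Of the 8 macrophage markers 1 was called higher (Cd68) and 0 lower. What the style stands for is not given, and all day 3 libraries have the single hyphen.

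**Figure D4:**
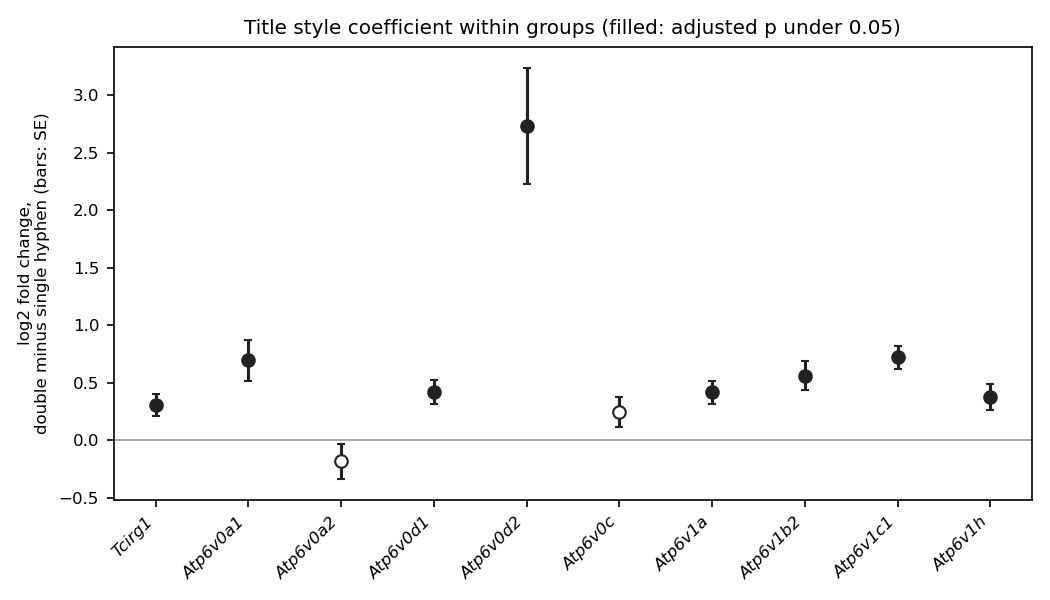
Log2 fold change of libraries whose title has a double hyphen (5 libraries) against a single hyphen, fitted within the 6 groups of label and day (y axis, edgeR, bars are SE), for each of the 10 genes (x axis). Filled points passed an adjusted p under 0.05 (8 of 10), and Atp6v0d2 is the highest at 2.73.

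The rest of the enzyme was read from a list of 15 further subunit genes. Of these 9 were tested, and Atp6v0a4, Atp6v0e2, Atp6v1b1, Atp6v1c2, Atp6v1e2 and Atp6v1g3 were not, with 0 to 87 counts each over all 18 libraries. From day 0 to day 3, 6 of 9 rose and 0 fell in the libraries labelled WT: Atp6v0e, Atp6v1d, Atp6v1e1, Atp6v1f, Atp6v1g1 and the accessory gene Atp6ap2, where 50.2% of all genes were called and 23.7% called higher. In those labelled KO 3 rose (Atp6v0e, Atp6v1d and Atp6v1e1) and 1 fell (Atp6v1g2, known from neurons, at 4.39 CPM on day 0 and 1.18 CPM on day 3), against 42.5% called and 20.2% called higher of all genes. The largest rise was that of Atp6v1d, a V1 stalk subunit, at 1.26 (SE 0.194, adjusted p = 0.000154) and 0.73 (SE 0.192, adjusted p = 0.0077). Atp6v0e measured 0.85 (adjusted p = 0.000202) and 0.55 (adjusted p = 0.00551), while Atp6v0b measured 0.32 (adjusted p = 0.256) and 0.03 (adjusted p = 0.929) and Atp6ap1 0.08 (adjusted p = 0.803) and -0.14 (adjusted p = 0.666).

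Of the 7 assembly factors, which build the pump or join its domains, 2 were called in the WT label and 1 in the KO label, where 50.2% and 42.5% of all genes were. Rogdi fell in both labels (-0.99 and -1.16, adjusted p = 0.00577 and 0.00285), and Tmem199 rose in the WT label (0.53, adjusted p = 0.00341) and measured 0.30 (adjusted p = 0.0727) in the KO label. Vma21, Ccdc115, Dmxl1, Dmxl2 and Wdr7 did not pass in either label.

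Of 6 partners in acid secretion, the same 3 rose and the same 1 fell in both labels. Of all genes, 50.2% (WT label) and 42.5% (KO label) were called, and 23.7% and 20.2% were called higher. Car2, the carbonic anhydrase that makes protons, went from 0.701 to 66.6 CPM (WT label) and from 1.74 to 42.2 CPM (KO label), with log2 fold changes of 6.53 and 4.59 (adjusted p = 3.83e-06 and 3.23e-05). Slc4a2, the bicarbonate exchanger, rose by 2.33 and 1.88, and Snx10 by 1.77 and 1.65, both called in each label. Plekhm1, a lysosome transport protein, fell (-0.68 and -0.83, adjusted p = 0.00532 and 0.00216). Clcn7, the chloride carrier that balances the pump's charge, and its partner Ostm1 did not pass (0.32 and 0.12 for Clcn7).

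Of the factors known to bind pump genes, Nfatc1 rose in both labels (2.53 and 2.17, adjusted p = 2.16e-06 and 1.12e-05), while Tfeb (-1.40 and -1.18, adjusted p = 0.00437 and 0.0147) and Tfe3 (-1.18 and -1.16, adjusted p = 5.9e-05 and 0.000121) fell. Mitf and Tfec did not pass in either label.

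The genes whose log2 CPM was most like that of Atp6v0d2 over the 18 libraries, among 9305 genes with a mean of at least 10 CPM, were Galnt6 (Pearson r = 0.938), Cblb (0.921), Jun (0.919), Setd8 (0.910) and ENSMUSG00000059248 (Sept9 in the reference annotation, 0.883). For Tcirg1 they were Actr8 (0.910), Pum2 (0.894), Baiap2 (0.874), Ik (0.874) and Foxn2 (0.873). These r are descriptions with no p, over libraries that share days and title styles.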

How the data were processed

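RNA had been isolated from mouse macrophage cultures and sequenced as 18 libraries (SMARTER mRNA kit, per the labels). The authors deposited, for 34745 genes, raw read counts and FPKM values (per their methods, made with StringTie and Ballgown; per the submitters' processing notes, StringTie on GRCm38.p4 and mm10). The aligner and counter are not given in the sources used here, nor whether counting used strand. The deposited FPKM equalled counts divided by library total and 1 fixed length per gene in 12669 of 12669 genes with at least 50 counts (tolerance 1e-04), so it corrects length and depth but not composition. Groups came from the labels.

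Counts were scaled by TMM and tested by edgeR 4.0.16 (R 4.3.3) quasi-likelihood fits of 6 groups after filterByExpr, with Benjamini-Hochberg adjustment over 14241 genes and a threshold of 0.05. SE is the absolute log2 fold change over the square root of F, and the common dispersion was 0.0945. Totals of 13789775 to 17559958 counts set the precision of low genes. Shares of FPKM were compared by exact permutation (Python 3.11.15, scipy 1.17.1), and both procedures were tested on simulated data. Alternatives were DESeq2 1.42.0, other scalings and filters, title style, replicate blocks and leaving out libraries. No library pair of a group agreed within sampling noise (chi-square over degrees of freedom of 18.9 to 175).

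Replicate numbers are in the titles. Same-number deviations from group means correlated over genes at 0.13 to 0.398 (KO day 0 and day 3) and 0.156 to 0.34 (KO day 1 and day 3). Between KO day 0 and day 1 they correlated at 0.0536, 0.501 and 0.598 (numbers 1, 2 and 3). Between WT day 0 and day 3 they correlated at -0.023 to 0.111. Across the labels, number 3 gave 0.321 (WT and KO day 0) and 0.352 (WT day 0 and KO day 1). Number 1 gave -0.393 (WT and KO day 0), and number 2 gave -0.331 (WT day 1 and KO day 0). Libraries of unlike number were not compared, so whether the numbers pair libraries cannot be told.

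Named genes were the 10 members, called genes of the subunit and assembly lists, 2 further lists of partners and factors, and the 5 genes most correlated with Atp6v0d2 and Tcirg1. The members and lists were chosen with earlier results of these data known. Promoters came from RefSeq (GRCm38.p6) and transcript lengths from GENCODE M21. A sequence comparison of the d subunit genes is not reported here.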

Additional observations from a re-analysis of the deposited data

How the results depend on the processing

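Of 942 values recomputed under alternatives, 828 kept their direction and side of the threshold (or, for counts, stayed within 1.5 times), 61 lost a call, 26 gained one, 17 counts moved further and 10 changed sign. No alternative called a member on day 1 against day 0, between the labels or in the interaction.

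The count of members called from day 1 to day 3 in the WT label (3) became 5 with total counts, with the DESeq2 Wald test, with both libraries numbered 1 averaged and without the 5 double-hyphen libraries. A title style term gave 6 there, and it gave 7 from day 0 to day 3 (4) and 5 from day 1 to day 3 (3) in the KO label. With single libraries left out, the counts ran from 2 to 5 (WT, day 1 to day 3), from 1 to 3 (KO, day 0 to day 3), from 0 to 2 (KO, day 1 to day 3) and from 3 to 7 (title style). Member counts under alternatives are given throughout without the share of all genes called under each. They show only how the member count moved.

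Signs turned for values that were not called. With total counts Tcirg1, Atp6v0a2 and Atp6v0d1 measured 0.18, 0.26 and 0.039 from day 0 to day 3 in the WT label. With single libraries left out, Atp6v0a2 ran from -0.23 to 0.040 there, and from -0.078 to 0.12 between the labels on day 3, above 0 on leaving out the third WT (0.12), the first KO (0.0079) or the second KO (0.043) library. With a stricter filter it was 0.012.

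With the replicate block the number of members called was 5 (WT) and 4 (KO) from day 0 to day 3, and 4 and 2 from day 1 to day 3. The blocks within label gave 6 (Atp6v0d2 at 3.65, adjusted p = 0.0231) and 4 from day 0 to day 3. In the paired share test, Atp6v0d2 differed by 39.9 points (day 3 against day 0, exact p = 0.0312, the smallest of 64 orders, adjusted p = 0.167) and 32.9 points (day 3 against day 1, adjusted p = 0.167), and Tcirg1 by 4.31 points (day 3 against day 1, adjusted p = 0.25). The paired share test allows few orders, so a lost call in it says nothing of stability.

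Without the 5 double-hyphen libraries the same 3 shares differed by 50.2 (exact test with fewer orders, adjusted p = 0.08), 45.4 and 3.61 points. The differences from day 1 there rest on 1 library of KO day 1. The Tcirg1 difference of day 1 against day 0, -2.24 points and not called (adjusted p = 0.08, exact test), was -2.30 points (exact test, adjusted p = 0.03) with both WT day 1 libraries numbered 1 averaged. The Atp6v0d2 label difference was -5.83 points with day 3 alone, and its day 1 difference -1.03 points when the double-hyphen WT day 1 library was left out. With single libraries left out, Atp6v0d2 differences ran from 34.3 to 46.2 (day 3 against 0), -1.03 to 14.7 (day 1 against 0), 26.5 to 40.9 (day 3 against 1) and 5.40 to 15.4 points (labels), and Tcirg1 differences from 1.62 to 3.23, -2.93 to -1.67, 3.85 to 5.47 and -1.82 to -0.74 points. The cause of these changes was not tested. The title style comparison, the longest transcript length and the day 3 label test were chosen after seeing the data.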

Other observations

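Markers of further cell types were summed in every library. Neutrophil markers (8 genes) came on day 0 to 682 to 3106 CPM in the libraries labelled WT and 3743 to 12097 CPM in those labelled KO, which did not overlap, and on day 1 to 362 to 2178 CPM and 1481 to 3246 CPM. They came to 37.9 to 70.8 CPM in the libraries labelled WT on day 3 and to 102 to 1179 CPM in those labelled KO on day 3. Markers of B cells (6 genes) stayed between 7.43 and 53.4 CPM, of T or NK cells (6 genes) between 0 and 8.74 CPM, and of erythroid cells (6 genes) between 6.68 and 33.2 CPM. With the title style as a term, 0 of 8 neutrophil markers were called. Of the B cell markers 1 of 6 was called lower, and of the erythroid markers 2 of 3 tested, against 23.2% of all genes called. On days 0 and 1, Hba-a1 measured 0 to 0.0769 CPM in the double-hyphen libraries and 5.10 to 7.43 CPM in the others. Hbb-bt measured 0 CPM and 1.46 to 2.40 CPM. Their log2 fold changes were -7.34 and -7.71 (edgeR, adjusted p = 1.02e-07 and 3.93e-05).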
